A study of Drosophila melanogaster with 27 samples.

Results

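The arrays measured 132 genes that build or accompany the insect cuticle, out of 11982 genes named by a probe set with a single gene symbol. The choice was made with earlier results of these data known, among them rises of Osi6 and obst-A in the genotype Tim-Dcr (described below). Membership went by name, as every symbol that begins with Cpr and a digit, Twdl, obst-, Osi and a digit, Lcp or Ccp84A. That gave 66 Cpr genes, 24 Tweedle genes (Twdl), 24 Osiris genes (Osi), 8 obstructor genes (obst), 7 larval cuticle protein genes (Lcp) and 3 genes of the Ccp84A group. Of their 135 probe sets with a single symbol, each gene was represented by the one of highest mean across the 27 arrays, and 3 genes had a second one. A further 6 probe sets that match several symbols at once were left out.

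The cuticle is the layered shell that epidermal cells secrete over the body, the tracheae, the foregut and hindgut and the lenses of the compound eye. Its scaffold is chitin, to which Cpr proteins, Lcp proteins among them, bind through a shared chitin-binding consensus; Tweedle proteins are structural proteins of the same matrix and obstructor proteins carry peritrophin-type chitin-binding domains. Osiris genes are an insect family of predicted membrane proteins, most of them clustered together on 1 chromosome arm, and are known for activity in cuticle-secreting epidermis. Most cuticle protein genes are transcribed in bursts around the moults of larval and pupal life, and some stay active in adult tissue.

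RNA was measured in material labelled as heads of adult Drosophila melanogaster kept under a cycle of 12 h light and 12 h dark, with 27 single-colour Affymetrix arrays. Each array held RNA either from material immunoprecipitated with AGO1 (IP), the Argonaute protein that carries microRNAs in flies, or from the head extract before precipitation (INPUT). A genotype named Tim-Dcr gave 1 IP and 1 INPUT array at ZT3 and again at ZT15 (ZT, Zeitgeber time, is hours after lights on). Wild type gave 12 IP arrays, 2 at each of ZT3, ZT7, ZT11, ZT15, ZT19 and ZT23, and 11 INPUT arrays, 2 at each time except ZT3 with 1. The labels do not say what Tim-Dcr stands for, which driver or allele it carries, or the flies' strain, sex or exact age. The design text calls the wild-type samples biological replicates. All values below are log2 values; a difference of 1 is 2-fold. Precision is limited by how many arrays there are, and no precipitate with control serum was analysed here.

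The arrays fell into clear sets. The array median lay at 4.54 and 4.34 in Tim-Dcr IP (ZT3, ZT15), against 4.77 to 4.90 in wild-type IP. It lay at 5.93 and 5.66 in Tim-Dcr INPUT, against 6.11 to 6.19 in wild-type INPUT. The Tim-Dcr arrays stood apart from wild type: over all probe sets, the median correlation with the wild-type arrays of the same fraction was 0.934 (ZT3) and 0.871 (ZT15) for IP and 0.930 and 0.846 for INPUT, whereas for wild-type arrays it lay between 0.981 and 0.993. Photoreceptor mRNAs were abundant in all arrays: 5 eye genes averaged 12.4 in both Tim-Dcr INPUT arrays and 12.2 to 12.6 in wild-type INPUT. In wild type, mRNAs of testis, male reproductive tract and midgut were abundant too, and most of these list means lay at or under the array median in Tim-Dcr. A list of 10 genes, called the testis list here, had a mean of 8.79 (ZT3) and 4.89 (ZT15) in Tim-Dcr INPUT. In wild-type INPUT it lay at 11.3 to 12.0. The mean of 11 genes of the male reproductive tract lay at 4.39 to 5.99 in Tim-Dcr INPUT, against 9.38 to 10.1 in wild-type INPUT. Whether each listed gene is confined to its tissue was not tested. The testis list holds Mst57Da and Mst57Dc, and whether these belong with the male tract instead was not tested. The mean of 12 midgut protease genes lay at 5.14 to 5.61 in Tim-Dcr INPUT, against 8.09 to 9.02 in wild-type INPUT. In IP the testis list reached at most 6.99 in Tim-Dcr, against 8.96 to 10.4 in wild type, the male tract list lay at 3.31 to 4.24, against 7.04 to 8.55, and the midgut list at 3.90 to 4.43, against 6.10 to 7.78. In tissue extracts of this kind, fewer cells of a type and less RNA per cell cannot be told apart.

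The level of the genes in wild-type INPUT was low. The level is that of the material labelled head, in which testis, male tract and midgut mRNAs were abundant, and how much of it came from other body parts was not tested. Over all 18769 probe sets, the quartiles of the mean in wild-type INPUT were 4.17, 6.15 and 8.21. Of the 132 cuticle and Osiris genes, 43 lay under the lower quartile, 72 between it and the median, 13 between the median and the upper quartile and 4 above the upper quartile, so that 115 (87.1%) lay below the median probe set. All 24 Osiris genes did, with a highest mean of 5.99 for Osi2, and so did 55 of 66 Cpr genes, 21 of 24 Tweedle genes, 6 of 8 obstructor genes, 6 of 7 Lcp genes and all 3 Ccp84A genes. A probe set's level also depends on its probes, so these places describe probe sets and not amounts of mRNA. No detection call was used, so a low value here was not told apart from background.

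**Figure D1:**
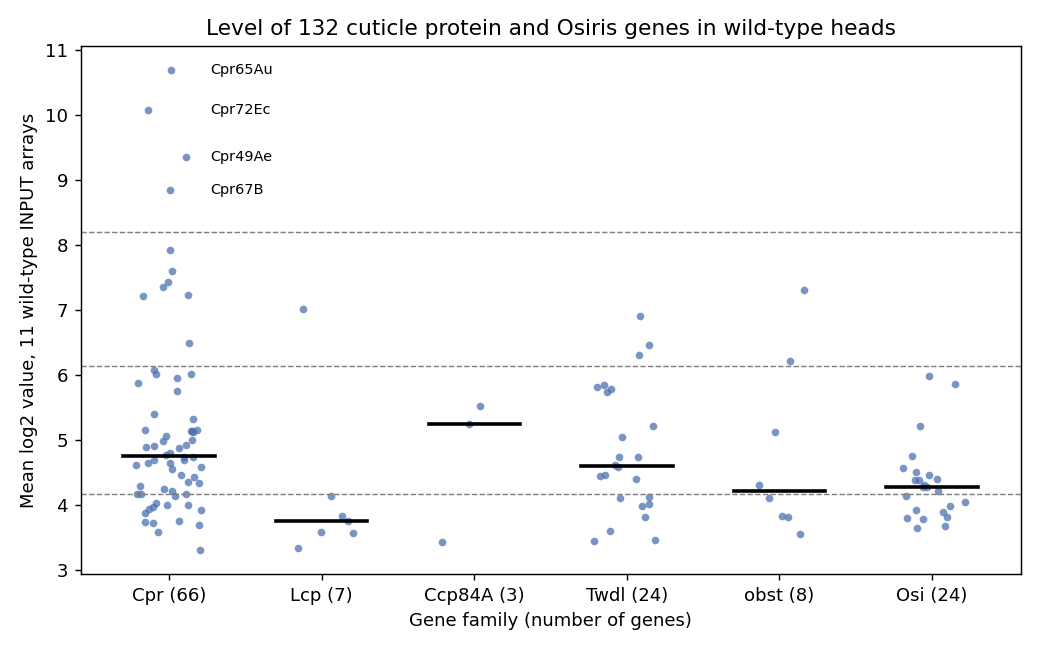
Mean log2 value in the 11 wild-type INPUT arrays (vertical axis) for each of the 132 genes (points), by family (horizontal axis), with the family median as a black bar and the quartiles of all probe sets as dashed lines. The 4 named Cpr genes lie above the upper quartile of 8.21, and all 24 Osi genes lie below the median of 6.15.

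The 4 genes above the upper quartile were Cpr genes. Cpr65Au averaged 10.70 ± 0.17, Cpr72Ec 10.08 ± 0.73, Cpr49Ae 9.35 ± 0.49 and Cpr67B 8.85 ± 0.35 in wild-type INPUT (SD, n = 11 arrays over 6 times). Cpr72Ec is a component of the corneal lens. The next 8 lay between the median and the upper quartile: Cpr100A averaged 7.93, Cpr51A 7.60, Cpr49Ag 7.43, Cpr49Ab 7.36, obst-E 7.31, Cpr47Ee 7.24, Cpr62Bb 7.22 and Lcp65Aa, a larval cuticle protein gene by name, 7.01. Cpr72Ec varied most between these arrays among the 12 genes, and Cpr65Au, Cpr51A, Cpr47Ee and Lcp65Aa each had an SD of 0.17.

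Tests were run on probe sets that exceeded log2 4 on 3 arrays or more. In wild type 106 of the 132 genes passed, and with the Tim-Dcr arrays 113; the 7 that passed only with Tim-Dcr were Osi6, Osi22, obst-F, obst-I, Lcp9, Lcp65Ag3 and Cpr49Aa. The rest had no test, and counts below are of the genes tested.

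Time of day was asked of each fraction with a 24 h cosine curve fitted to the 23 wild-type arrays (limma's F test, Benjamini-Hochberg adjusted over 15517 probe sets). The corneal lens gene Cpr72Ec was rhythmic in both fractions, high around dawn and lowest at ZT15. In IP its 2 arrays read 9.32 and 9.91 at ZT3, 8.64 and 8.61 at ZT7, 8.18 and 8.45 at ZT11, 7.32 and 8.28 at ZT15, 7.66 and 8.15 at ZT19 and 9.47 and 9.49 at ZT23. In INPUT they read 11.12 at ZT3 (1 array), 10.29 and 9.89 at ZT7, 9.67 and 9.82 at ZT11, 9.04 and 9.60 at ZT15, 9.52 and 9.69 at ZT19 and 11.17 and 11.08 at ZT23. In each fraction the arrays of ZT3 and ZT23 lay above all others. The fitted swing between peak and trough was 1.85 in IP (SE 0.29, 3.61-fold, limma adjusted p = 0.0037), with the peak 2.47 h after lights on, and 1.87 in INPUT (SE 0.32, 3.67-fold, adjusted p = 0.0113), with the peak at 1.94 h. The INPUT call was lost without the single INPUT array of ZT3 (adjusted p = 0.0639) or without either INPUT array of ZT23 (0.0623 and 0.0525). Tim-Dcr arrays had the same order of times: 9.97 at ZT3 and 9.00 at ZT15 in IP, and 11.59 and 10.26 in INPUT, although with 1 array each this has no test.

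Osi2 and TwdlT were called in IP besides, which made 3 of 106 genes, where 0.928% of all probe sets were called. Osi2, an Osiris gene, was highest at ZT11 and lowest at ZT23: its IP arrays read 5.06 and 5.17 at ZT3, 5.25 and 5.23 at ZT7, 5.51 and 5.64 at ZT11, 4.96 and 4.86 at ZT15, 4.77 and 4.67 at ZT19 and 4.52 and 4.56 at ZT23. Its swing was 0.89 (SE 0.16, 1.86-fold, limma adjusted p = 0.0153), with the peak at 9.15 h, and the call was lost without any 1 of the IP arrays of ZT11 (adjusted p = 0.0641 and 0.0780) or ZT23 (0.0650 and 0.0541). TwdlT, a Tweedle gene, read 5.49 and 5.59 in IP at ZT3, 5.21 and 5.37 at ZT7, 5.12 and 4.67 at ZT11, 4.21 and 4.87 at ZT15, 5.07 and 4.99 at ZT19 and 5.53 and 5.43 at ZT23. Its swing was 0.97 (SE 0.19, 1.95-fold, adjusted p = 0.0339), with the peak at 2.24 h. The TwdlT call did not hold without 8 single IP arrays in turn (adjusted p up to 0.180, without replicate 1 of ZT15), nor in the IP arrays alone (0.0553).

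**Figure D2:**
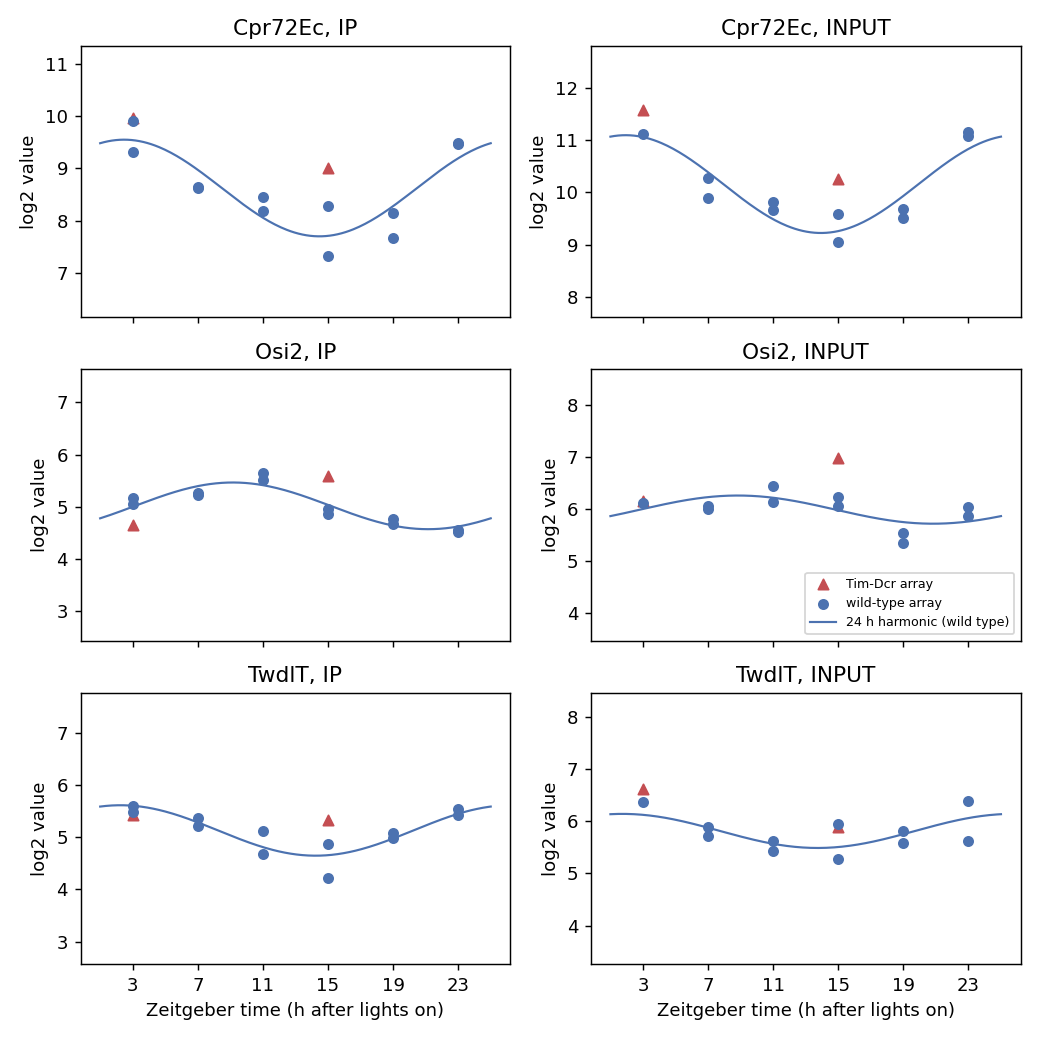
Log2 value on single arrays (vertical axis) against Zeitgeber time in h (horizontal axis) of Cpr72Ec, Osi2 and TwdlT in IP (left) and INPUT (right), with red triangles for Tim-Dcr, blue circles for wild type and the fitted wild-type curve. Cpr72Ec swings 1.85 in IP and 1.87 in INPUT with a trough near ZT15, and the swings of Osi2 (0.89) and TwdlT (0.97) in IP are smaller.

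In INPUT, Cpr72Ec was the single call among 106 genes, where 0.593% of all probe sets were called; 10 of the 106 had an unadjusted p under 0.05. The next by p were Cpr11B, with a swing of 0.76 (SE 0.17, limma adjusted p = 0.0805), and Cpr73D, with 0.69 (SE 0.17, adjusted p = 0.176). Cpr11B was not called, and its fitted curve had its peak at 11.5 h, with INPUT values between 4.71 (ZT23) and 5.55 (ZT11). A call of Cpr11B appeared in 1 fit that left out a single array (IP ZT19 replicate 1, limma adjusted p = 0.0264). In other such fits the adjusted p rose to as much as 0.361. Osi2 and TwdlT had swings of 0.54 and 0.65 in INPUT, with peaks at 8.83 and 1.73 h, and passed no test there (adjusted p = 0.493 and 0.611). The curves of IP and INPUT were compared directly, and 0 of 106 genes differed (limma; 1 had an unadjusted p under 0.05), as did 0% of all probe sets. The smallest p values in that comparison belonged to Cpr78Cb, Cpr65Ec and Cpr49Ab, with differences of 0.39, 0.51 and 0.93 between the curves.

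Among other genes of cuticle making, those called rhythmic were few. Of 29 chitin genes measured, Gasp, which encodes a chitin-binding protein of the tracheal matrix, was the 1 call in each fraction, with a swing of 1.13 in IP (limma adjusted p = 0.0123, peak at 2.28 h) and 1.14 in INPUT (adjusted p = 0.0389, peak at 3.67 h). Of 18 tanning and pigment genes tested, tan (t), a hydrolase that frees dopamine and histamine from their beta-alanyl forms, was the 1 call in each, with a swing of 1.17 in IP (adjusted p = 0.0173, peak at 23.7 h) and 1.27 in INPUT (adjusted p = 0.0113, peak at 21.7 h). In IP, dusky (dy), a zona pellucida protein of the apical matrix of wing cells, swung by 4.60 (24.3-fold, adjusted p = 5.14e-06, peak at 15.7 h) and by 1.32 in INPUT (adjusted p = 0.791), and the nuclear receptor gene Hr38 by 2.29 (adjusted p = 0.0067, peak at 6.54 h).

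Setting IP against INPUT addressed which mRNAs were over-represented with AGO1. IP arrays lie lower as a whole, by a median of 1.31 over all probe sets, and the fractions may have been normalized apart, so each array was centred on its own median and values are relative to it. Of 106 cuticle and Osiris genes, 27 were higher in IP and 6 lower (limma, adjusted p under 0.05), against 29.7% higher and 29.6% lower among all probe sets tested, and 73 did not pass. Their median difference was 0.07, beside 0.01 over all probe sets. With same-numbered IP and INPUT arrays as pairs (replicate block), 32 were higher and 14 lower, beside 33.4% and 33.7% of all probe sets. As deposited, without centring, 2 of the 106 were higher in IP (Osi9 by 0.71 and Cpr49Ag by 0.69) and 102 lower, beside 3.63% and 93.1% of all probe sets.

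Osi9 and Cpr49Ag stood highest. Relative to the array median, Osi9 lay between -0.45 and 0.94 in the 12 IP arrays (median 0.36), against -2.04 to -1.48 in the 11 INPUT arrays (median -1.72), and its difference was 2.03 (SE 0.10, 4.08-fold, limma adjusted p = 2.59e-11). Cpr49Ag lay between 2.67 and 3.91 in IP (median 3.19), against 0.71 to 1.87 in INPUT (median 1.32), with a difference of 2.00 (SE 0.11, 4.01-fold, adjusted p = 6.75e-11). In both genes the fractions did not overlap. Cpr47Ee followed, at 1.93 to 2.56 in IP (median 2.35), against 0.86 to 1.37 in INPUT (median 1.06), a difference of 1.25 (SE 0.07, 2.38-fold, adjusted p = 2.52e-10). These 3 were the calls past 2-fold.

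Among the obstructor genes, which bind chitin, obst-E was higher in IP by 0.98 (SE 0.07, limma adjusted p = 2.50e-09) and obst-A by 0.93 (SE 0.18, adjusted p = 0.000228). obst-A lay between -0.01 and 1.48 in IP (median 1.02), against -0.77 to 0.52 in INPUT (median 0.19), so its fractions overlapped. For obst-E the probe sets disagree: the second one was lower in IP by -0.24 (adjusted p = 0.00469). obst-B was lower by -0.40 (SE 0.08, adjusted p = 0.000554) and obst-J higher by 0.21 (adjusted p = 0.0314), though not at all 6 times. obst-H gave 0.12 (adjusted p = 0.195), and obst-F, obst-G and obst-I were too low in wild type for a test.

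Of the 27 genes higher in IP, 21 had the same sign at all 6 times. Those of largest difference after the ones above were TwdlG by 0.93, Cpr73D by 0.85, Cpr51A by 0.75, Cpr62Bb by 0.69 and TwdlT by 0.61. Without centring these, like Cpr47Ee, obst-E and obst-A, lie below 0 (at -0.06 for Cpr47Ee and -0.70 for TwdlT), so their direction holds only relative to the array median. At the other end stood Cpr67B, which lay between 1.10 and 2.01 in IP (median 1.43), against 1.88 to 3.33 in INPUT (median 2.72). Its difference was -1.22 (SE 0.09, 0.43-fold, adjusted p = 7.22e-09), the single one past 2-fold in that direction. Cpr65Au, with the highest level of all, was lower by -0.26 (adjusted p = 0.0145), Cpr5C by -0.23 (adjusted p = 0.0178) and Lcp65Aa by -0.25 (adjusted p = 0.0327). The Lcp65Aa call was lost when any 1 of 11 arrays was left out (adjusted p up to 0.0684), and its second probe set read 0.06. Twdlalpha (-0.48, adjusted p = 0.0127) changed sign between times.

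**Figure D3:**
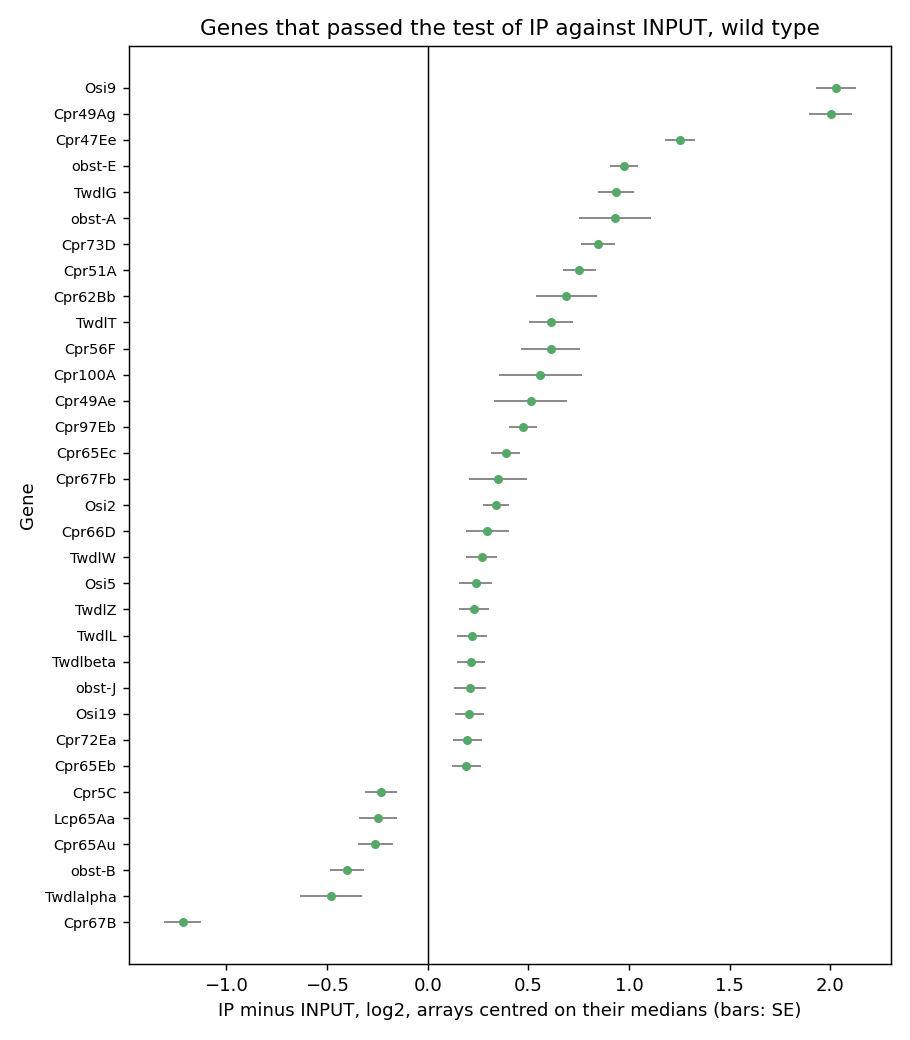
Centred IP minus INPUT on the log2 scale (horizontal axis, bars are SE) for the 33 cuticle and Osiris genes that passed the test in wild type (vertical axis). Osi9 (2.03) and Cpr49Ag (2.00) stand at the top and Cpr67B (-1.22) at the bottom, and most others lie within 1 of 0.

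Calls were more frequent among genes of higher level. Of 89 genes tested that lie below the median INPUT level, 18 were higher in IP and 2 lower (20.2% and 2.25%), beside 22.4% and 13.3% of all probe sets at such levels. Of the 17 above it, 9 were higher and 4 lower (52.9% and 23.5%), beside 34.4% and 40.3%. The following counts of other cuticle genes stand beside 29.7% of all probe sets higher in IP and 29.6% lower. Of 29 chitin genes, 8 were higher in IP and 12 lower, and 8 of 18 tanning genes were higher and 3 lower, with straw (stw), a laccase, at 2.03. Of 8 zona pellucida genes, 6 were higher and 0 lower, with piopio (pio) at 1.71. Of 14 hormone and epidermal regulators 11 were higher and 3 lower, with the nuclear receptor gene Hr39 at 2.25.

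The last comparison set Tim-Dcr against wild type at the same times, separately in IP and INPUT (limma on all 27 arrays, deposited scale). Osi6 showed the greatest difference. This Osiris gene read 5.65 (ZT3) and 5.84 (ZT15) in Tim-Dcr IP, against 2.29 to 3.26 in wild-type IP (median 2.37). It read 7.50 and 7.18 in Tim-Dcr INPUT, against 3.44 to 4.39 in wild-type INPUT (median 3.57). The groups did not overlap in either fraction, and Osi6 passes the filter only through the Tim-Dcr arrays. Its difference was 3.34 in IP (SE 0.21) and 3.45 in INPUT (SE 0.22), given as a description with no test. Wild-type values were among the lowest on the arrays, and whether they exceed background was not tested.

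Osi6 stood far above its neighbours. In RefSeq's gene order (assembly Release 6 plus ISO1 MT) it sits between Osi5 and Osi7. It belongs to a run of 9 adjacent genes chosen here, Osi24, Osi2, Osi3, Osi4, Osi5, Osi6, Osi7, Osi8 and Osi9. The gene after Osi9, Osi10a, is not among the genes chosen here, so the stretch of Osiris genes goes on past this run. Osi24 was higher by 0.64 in IP (adjusted p = 0.00157) and by 0.87 in INPUT (adjusted p = 0.000162). Osi4 was higher by 0.48 in IP (adjusted p = 0.0166) and by 0.41 in INPUT (adjusted p = 0.0436), and the other 6 neighbours did not pass in INPUT. Osi5, next to it, was lower in IP by -0.64 (SE 0.15, adjusted p = 0.00305) and gave -0.33 in INPUT (adjusted p = 0.102). Osi5 read 3.01 and 3.10 in Tim-Dcr IP, against 3.42 to 4.16 in wild-type IP. On centred arrays its difference was -0.29 and not called (adjusted p = 0.146). Osi7 gave 0.42 in IP (adjusted p = 0.0569) and 0.40 in INPUT (adjusted p = 0.0792).

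**Figure D4:**
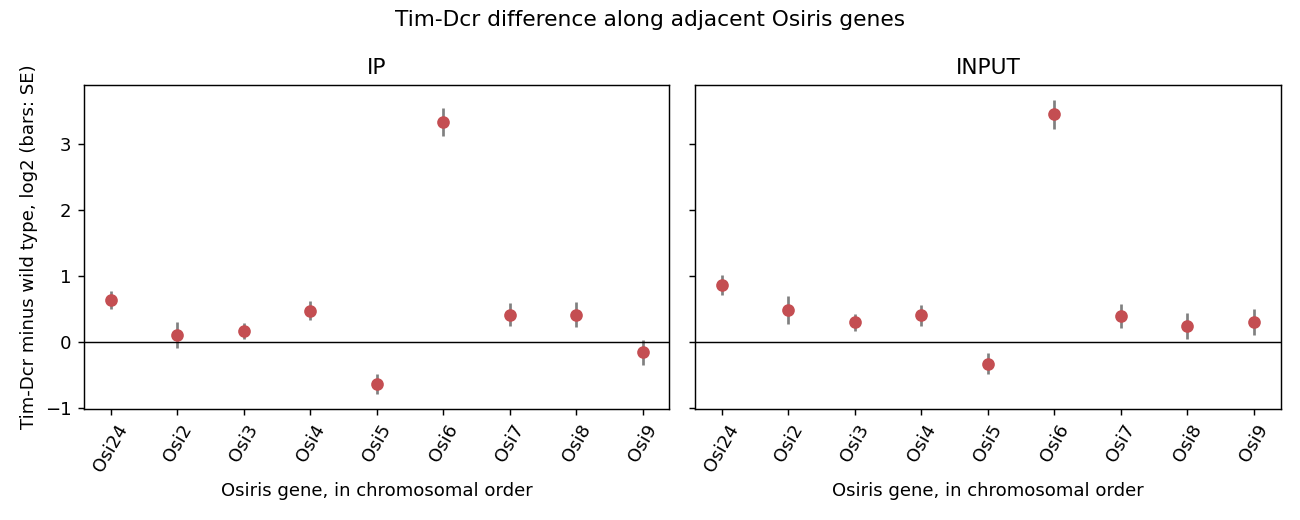
Tim-Dcr minus wild type on the log2 scale (vertical axis, bars are SE) in IP (left) and INPUT (right) for 9 adjacent Osiris genes in chromosomal order (horizontal axis). Osi6 stands at 3.34 in IP and 3.45 in INPUT, and its neighbours lie within 1 of 0.

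obst-A, a chitin-binding protein needed for the larval cuticle to form properly, had the next largest difference in INPUT, and the fifth in IP. It read 7.25 and 7.20 in Tim-Dcr IP (ZT3, ZT15), against 4.78 to 6.37 in wild-type IP (median 5.89), and 9.27 and 8.52 in Tim-Dcr INPUT, against 5.36 to 6.69 in wild-type INPUT (median 6.35). The groups did not overlap. It was higher by 1.34 in IP (SE 0.39, 2.53-fold, limma adjusted p = 0.0111) and by 2.72 in INPUT (SE 0.42, 6.60-fold, adjusted p = 5.48e-05). Because obst-A was named with its rise known, these p values are a description. The IP call was lost without the Tim-Dcr IP array of ZT3 (adjusted p = 0.0658) or of ZT15 (0.126). The difference between fractions was -1.38 (SE 0.57) and did not pass (adjusted p = 0.192). Its genomic neighbours sw and Peritrophin-A do not match the name pattern and so are not among the genes chosen here.

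The other obstructor genes gave smaller differences. obst-E read 7.86 and 7.62 in Tim-Dcr IP, against 6.65 to 7.50 in wild-type IP, and 8.73 and 8.32 in Tim-Dcr INPUT, against 7.07 to 7.64 in wild-type INPUT. It was higher by 0.65 in IP (adjusted p = 0.000888) and 1.14 in INPUT (adjusted p = 7.77e-06), and both its probe sets rose. obst-B rose by 1.03 in IP (adjusted p = 6.18e-05) and 0.86 in INPUT (adjusted p = 0.000361), with no overlap of groups in either fraction. obst-F and obst-I pass the filter only through the Tim-Dcr arrays, and obst-F gave 0.17 in IP and 0.45 in INPUT, with no test. obst-J was lower in IP by -0.45 (adjusted p = 0.0342), a call that centring ended (-0.10, adjusted p = 0.593), as did leaving out the Tim-Dcr IP array of ZT15 (adjusted p = 0.524) or wild-type IP arrays of ZT3 or ZT15 (adjusted p up to 0.104). obst-H did not pass, and obst-G was too low for a test.

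Over the 113 genes tested, 59 were higher and 7 lower in Tim-Dcr IP, beside 27% and 17% of all probe sets, and 40 were higher and 5 lower in Tim-Dcr INPUT, beside 32.3% and 17%. Of the higher calls, 3 in each fraction belong to the 7 genes that pass only through the Tim-Dcr arrays, so these counts are a description. With no filter, all 132 genes enter: 69 were then higher and 7 lower in Tim-Dcr IP, beside 28.4% and 14.5% of all probe sets, and 44 were higher and 5 lower in Tim-Dcr INPUT, beside 29% and 14.3%. The median difference over the 132 genes was 0.42 in IP and 0.29 in INPUT, beside 0.19 and 0.21 over all probe sets. Of the 115 genes below the median level, 49.6% were higher in IP, beside 36.5% of all such probe sets, and 28.7% in INPUT, beside 23.5%. Of the 17 above it, 70.6% were higher in IP, beside 20.3%, and 64.7% in INPUT, beside 34.5%. Lower calls below the median level were 2.61% in IP beside 3.72% and 0.87% in INPUT beside 5%, and above it 23.5% in IP beside 25.2% and 23.5% in INPUT beside 23.5%. In IP, 60 of all 132 genes had both Tim-Dcr arrays above every wild-type IP array and 6 had both below, beside 27.7% and 14.7% of all probe sets. In INPUT these were 44 and 7 genes, beside 33.4% and 15.4%. Called in both fractions were 38 genes, which is 57.6% of the IP calls and 84.4% of the INPUT calls. Of them, 33 were higher and 5 lower in both. The 33 include Osi6, and the percentages rest on calls that include genes passing only through the Tim-Dcr arrays. They are therefore a description too. Among the 106 genes that pass in wild type, 56 were higher and 7 lower in IP, and 37 and 5 in INPUT. The share of all probe sets called in both fractions was not counted, so the overlap is not read as particular to these genes. The fractions were taken from head extracts of the same times and are not independent.

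With each array centred, all Tim-Dcr values move up, since the Tim-Dcr arrays have lower medians: of the 106 genes that pass in wild type, 88 were then higher and 5 lower in IP (59.5% and 11.9% of all probe sets) and 85 higher and 4 lower in INPUT (63.9% and 13.2%). The median over all probe sets was then 0.52 in IP and 0.59 in INPUT, so the number of genes called higher depends on the scale while the named genes of largest difference keep their sign. Marker lists of some other body parts moved with the genotype as well. As deposited, all 10 testis-list genes, 10 of 11 male tract genes and 11 of 12 midgut genes were lower in Tim-Dcr INPUT. In Tim-Dcr IP these were 10, 10 and 10, beside 17% of all probe sets lower in each fraction. Of 5 fat body genes, 3 were higher in each fraction, beside 32.3% of all probe sets in INPUT and 27% in IP. The fat body list averaged 11.8 in both Tim-Dcr INPUT arrays, against 10.5 to 11.1 in wild-type INPUT, and the trachea list of 3 genes 7.17 to 7.53, against 6.45 to 7.15. A larval salivary gland list of 6 genes, low in wild-type INPUT (3.71 to 5.50), was higher as well. Its median difference was 0.42 in IP and 0.21 in INPUT, beside 0.42 and 0.29 over the 132 genes. It averaged 3.27 to 3.34 in Tim-Dcr IP, against 2.74 to 3.04 in wild-type IP. In INPUT it averaged 4.19 to 4.48 in Tim-Dcr, against 4.01 to 4.18 in wild type. The ranges overlapped for the flight muscle list of 8 genes (7.88 to 8.78, against 8.38 to 9.75) and the ovary and egg list of 9 genes (4.89 to 5.24, against 4.95 to 7.18). Their part in the cuticle gene differences was not tested.

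With no filter, 38 of the 66 Cpr genes were higher in IP (28.4% of all probe sets) and 24 in INPUT (29%), and 3 were lower in each. Cpr65Au, the gene of highest level, read 10.58 and 10.74 in Tim-Dcr IP, against 8.78 to 9.34 in wild-type IP, and 11.85 and 11.98 in Tim-Dcr INPUT, against 10.45 to 10.99 in wild-type INPUT. Its differences were 1.58 in IP (adjusted p = 6.04e-06) and 1.28 in INPUT (adjusted p = 2.97e-05). Cpr73D read 7.72 and 7.49 in Tim-Dcr IP, against 5.71 to 6.51 in wild-type IP, and 8.01 and 7.98 in Tim-Dcr INPUT, against 5.99 to 7.18 in wild-type INPUT. Its differences were 1.50 and 1.41 (adjusted p = 1.58e-05 and 2.59e-05). Neither gene's groups overlapped.

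Cpr49Ae, Cpr100A and Cpr62Bb were higher as well, with wider wild-type spreads. Cpr49Ae read 9.67 and 9.29 in Tim-Dcr IP, against 7.86 to 9.31 in wild-type IP, and 11.02 and 10.70 in Tim-Dcr INPUT, against 8.69 to 10.27 in wild-type INPUT. It was higher by 1.04 in IP (SE 0.38, adjusted p = 0.0342) and by 1.82 in INPUT (SE 0.41, adjusted p = 0.00153). In IP the groups overlapped, and the call was lost without either Tim-Dcr IP array (adjusted p = 0.192 and 0.152) or without replicate 1 of wild-type IP at ZT3 or ZT15 (0.0901 and 0.0986). Cpr100A read 8.56 and 8.13 in Tim-Dcr IP, against 6.60 to 7.65 in wild-type IP, and 9.79 and 9.22 in Tim-Dcr INPUT, against 6.98 to 8.56 in wild-type INPUT. Its differences were 1.21 in IP (adjusted p = 0.0286) and 1.65 in INPUT (adjusted p = 0.00643), and both calls were lost without either Tim-Dcr array of that fraction (adjusted p between 0.0574 and 0.205), without wild-type IP replicate 1 of ZT3 or ZT15 in IP (0.0741 and 0.0815) and without the wild-type INPUT array of ZT3 in INPUT (0.0707). Cpr62Bb was higher by 1.23 in IP (adjusted p = 0.00406; 0.0639 without the Tim-Dcr IP array of ZT15) and by 1.28 in INPUT (adjusted p = 0.00421).

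Of 13 runs of adjacent genes made up of Cpr genes alone, every member was higher in INPUT in 3 (Cpr76Ba to Cpr76Bd, Cpr49Ae to Cpr49Ag, and Cpr78Ca with Cpr78Cb) and in IP in 2 (Cpr76Ba to Cpr76Bd, and Cpr62Ba to Cpr62Bc). Genes without a test count here as not higher. Of 59 Cpr genes tested, 40.7% were higher in INPUT and 59.3% in IP, beside 32.3% and 27% of all probe sets. The 59 include Cpr49Aa, which passes the filter only through the Tim-Dcr arrays and is counted as higher in IP. No such count was made for other adjacent genes, so the runs are a description. The 4 adjacent genes Cpr76Ba, Cpr76Bb, Cpr76Bc and Cpr76Bd were all higher in INPUT, by 0.42 to 1.40, and all 4 in IP. Cpr76Bc read 4.49 and 4.63 in Tim-Dcr IP, against 3.24 to 3.83 in wild-type IP, and 6.18 and 6.09 in Tim-Dcr INPUT, against 4.60 to 4.97 in wild-type INPUT, with differences of 0.93 (adjusted p = 7.40e-05) and 1.40 (adjusted p = 2.64e-06). Of the adjacent Cpr49Ae, Cpr49Af and Cpr49Ag, Cpr49Ae and Cpr49Af were higher in IP by 1.04 and 0.79 and Cpr49Ag gave 0.07 (adjusted p = 0.809), and all 3 were higher in INPUT, by 1.82, 0.85 and 0.84. Cpr49Ab, which lies nearby but not in that run, was lower, as given below. Of the 132 genes, 80 lie in 23 runs of adjacent genes that are all among the 132, so they share a neighbourhood. A run ends at a family gene that was not chosen, such as Osi10a, so some stretches are longer.

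Cpr11B, whose INPUT rhythm was not called, read 4.11 (ZT3) and 5.17 (ZT15) in Tim-Dcr IP, against 3.29 to 4.40 in wild-type IP. It read 6.04 and 6.86 in Tim-Dcr INPUT, against 4.71 to 5.55 in wild-type INPUT. It was higher by 0.90 in IP (SE 0.17, adjusted p = 0.000444) and by 1.47 in INPUT (SE 0.18, adjusted p = 7.26e-06). The corneal lens gene Cpr72Ec was higher by 0.78 in IP (SE 0.26, adjusted p = 0.0219) and by 0.74 in INPUT (SE 0.28, adjusted p = 0.0351). Its groups overlapped when all times were pooled.

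The 5 genes lower in Tim-Dcr in both fractions were Tweedle and Cpr genes; Osi5 and obst-J, given above, were lower in IP. TwdlP read 4.12 and 4.06 in Tim-Dcr IP, against 4.79 to 6.23 in wild-type IP, and 4.98 and 5.15 in Tim-Dcr INPUT, against 6.48 to 7.18 in wild-type INPUT. Its differences were -1.60 (SE 0.27, adjusted p = 0.000184) and -1.87 (SE 0.29, adjusted p = 5.61e-05). It sits between TwdlM and TwdlB in a run of 6 adjacent Tweedle genes chosen here, of which it was the 1 call in INPUT. The run ends at TwdlJ, which is not among the genes chosen here. Twdlalpha read 3.48 and 2.64 in Tim-Dcr IP, against 3.92 to 4.99 in wild-type IP, and 4.50 and 4.33 in Tim-Dcr INPUT, against 5.69 to 7.15 in wild-type INPUT, with differences of -1.38 (adjusted p = 0.00403) and -2.17 (SE 0.36, adjusted p = 0.000133). Its IP call was lost without the Tim-Dcr IP array of ZT15 (-0.77, adjusted p = 0.239).

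Cpr49Ab read 4.02 and 4.20 in Tim-Dcr IP, against 5.23 to 6.60 in wild-type IP, and 5.27 and 5.45 in Tim-Dcr INPUT, against 6.94 to 8.28 in wild-type INPUT. It was lower by -1.57 (SE 0.27, adjusted p = 0.000212) and -1.78 (SE 0.29, adjusted p = 8.74e-05). Cpr56F gave -1.44 in IP (SE 0.32, adjusted p = 0.00207) and -1.45 in INPUT (SE 0.35, adjusted p = 0.00249), and its IP call was lost without the Tim-Dcr array of ZT15 (-0.84, adjusted p = 0.173). Cpr51A gave -1.17 in IP (SE 0.17, adjusted p = 7.08e-05) and -0.76 in INPUT (SE 0.19, adjusted p = 0.00317); its INPUT call was lost on centred arrays (-0.40, adjusted p = 0.0766), without the Tim-Dcr INPUT array of ZT3 (0.0707) and without the wild-type one (0.0704). In these 5 genes both Tim-Dcr arrays lay below every wild-type array in each fraction.

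**Figure D5:**
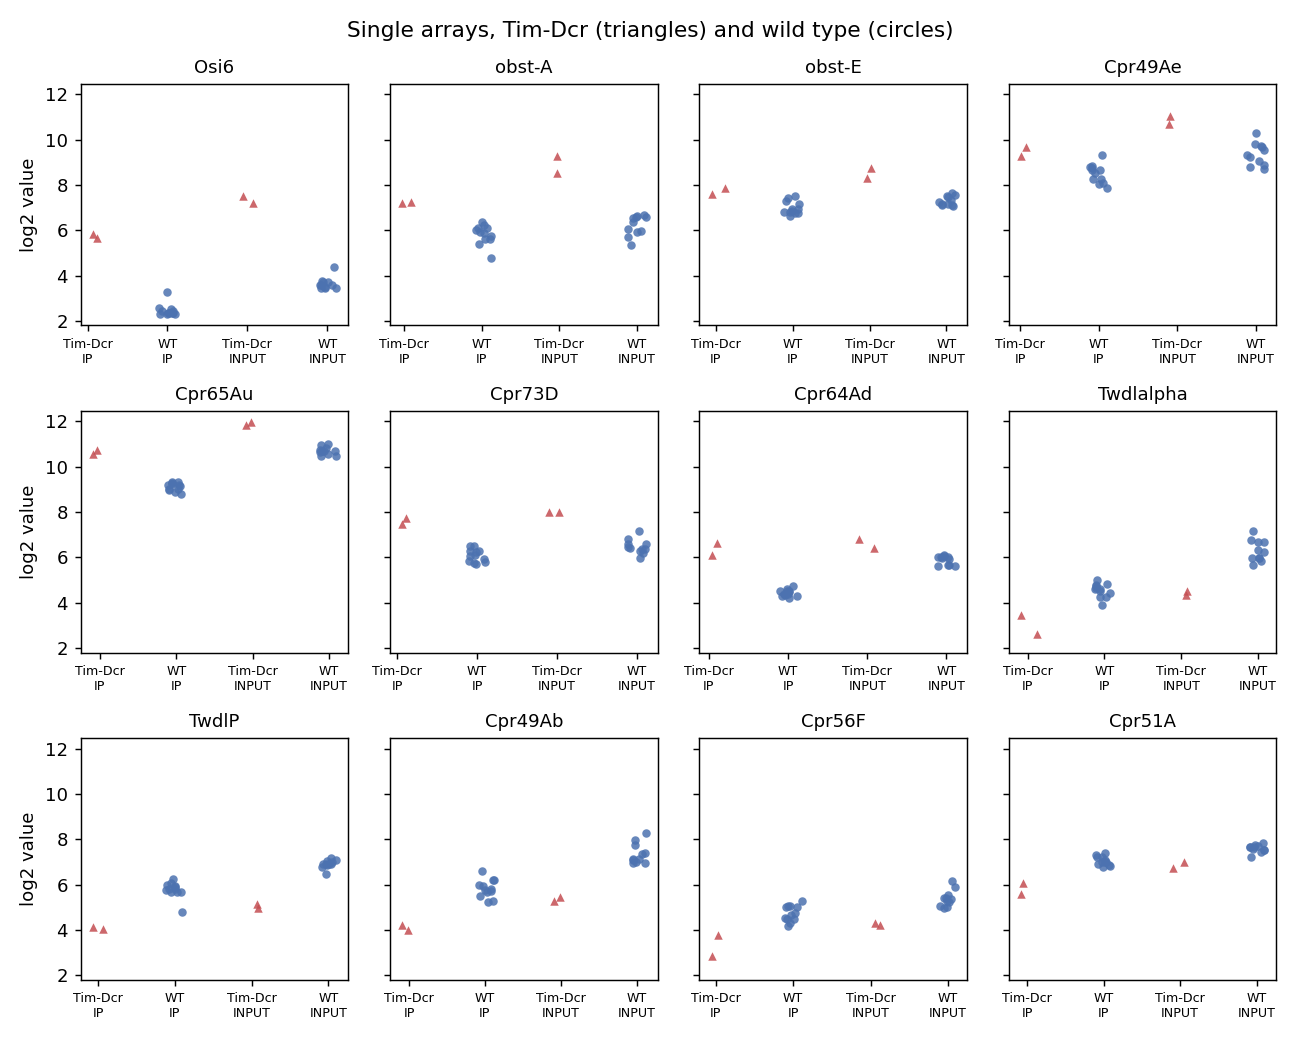
Log2 value on single arrays (vertical axis) of 12 genes in, left to right, Tim-Dcr IP, wild-type IP, Tim-Dcr INPUT and wild-type INPUT (2, 12, 2 and 11 arrays), with red triangles for Tim-Dcr and blue circles for wild type (WT). Osi6 and obst-A lie above all wild-type arrays of their fraction, and Twdlalpha, TwdlP, Cpr49Ab, Cpr56F and Cpr51A lie below them.

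Whether a Tim-Dcr difference itself differed between the fractions was tested for the same 113 genes. Cpr64Ad was the single gene that passed. It was higher by 1.87 in IP and by 0.75 in INPUT, so that IP exceeded INPUT by 1.12 (SE 0.25, adjusted p = 0.0274), beside 0.789% of all probe sets higher and 1.94% lower. It read 6.10 and 6.62 in Tim-Dcr IP, against 4.23 to 4.72 in wild-type IP, and 6.43 and 6.81 in Tim-Dcr INPUT, against 5.62 to 6.12 in wild-type INPUT. The call of the difference was lost without any 1 of the 4 Tim-Dcr arrays (adjusted p between 0.0648 and 0.176), without wild-type INPUT at ZT3 (0.176), without wild-type IP replicate 2 at ZT15 (0.0533) and on centred arrays (0.0790), where 0 of the 113 genes passed, beside 0.373% of all probe sets higher and 0.6% lower. obst-A (-1.38), Twdlalpha (0.79) and Cpr49Ae (-0.77) gave the other large values and did not pass (adjusted p = 0.192, 0.412 and 0.474). Osi6 gave -0.11 (SE 0.31), with no test, a value whose sign turned under some settings.

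Other genes of cuticle making were counted from lists of their functions. In Tim-Dcr INPUT, 14 of 29 chitin genes were higher and 3 lower, 12 of 18 tanning genes were higher and 0 lower, and 4 of 10 other cuticle protein genes were higher and 0 lower. In IP these were 11 and 2, 8 and 0, and 8 and 0. Of 8 zona pellucida genes, 3 were higher in IP and 6 in INPUT, and of 14 hormone and epidermal regulators 7 and 8, with 0 lower in any of these. The chitinase gene Cht12 was lower by -2.18 in IP and -3.21 in INPUT (adjusted p = 0.000157 and 6.30e-06). The chitinase gene Cht7 was higher by 0.73 in IP and 1.52 in INPUT (adjusted p = 0.0201 and 0.000114), and snsl, a cuticle protein gene outside the families above, by 1.23 and 2.01 (adjusted p = 0.000109 and 2.05e-06). Blimp-1, a transcriptional repressor induced by ecdysone, was higher by 2.30 in IP (adjusted p = 3.25e-08) and 0.73 in INPUT (adjusted p = 0.00124), and the difference of 1.57 passed (adjusted p = 0.00309). ple, the tyrosine hydroxylase that begins tanning, gave -0.41 in IP (adjusted p = 0.0962) and was higher by 0.95 in INPUT (adjusted p = 0.00144), a difference of -1.36 between fractions (adjusted p = 0.0241). These counts stand beside 27% of all probe sets higher and 17% lower in Tim-Dcr IP, and 32.3% and 17% in Tim-Dcr INPUT.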

How the data were processed

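RNA of IP and INPUT from material labelled as fly heads was labelled with biotin by the Affymetrix IVT kit, per the labels' protocols. The deposited table gives log2 values per probe set, which the submitters' processing notes credit to GCRMA. Its version is not given in the sources used here, nor is the set of arrays processed jointly. Control probe sets (183) were left out, which kept 18769. Groups came from the titles. The members and lists were chosen with earlier results of these data known.

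Tests used limma 3.58.1 (R 4.3.3; lmFit, eBayes, Benjamini-Hochberg at 0.05) on probe sets above log2 4 in at least 3 arrays, 15517 in wild type and 15835 with Tim-Dcr. IP minus INPUT was the mean over 6 times on median-centred arrays (11 residual degrees of freedom). Rhythm was a 24 h harmonic per fraction (17). Tim-Dcr was an offset per fraction from wild type of the same times (13), so its error comes mostly from wild-type arrays. All tests were run on simulated data with known changes and noise drawn independently for each array. The simulation held neither shared deviations of same-numbered arrays nor the array-wide Tim-Dcr difference, so it says nothing about these. Named genes were those of highest level, smallest rhythm p or largest difference with 1 sign at all times, plus Osi6, obst-A and the obst family. Osi24, Osi4, Osi7, Cpr49Af and the Cpr76B neighbours, the Cpr78C and Cpr62B runs, Cpr92F and Cpr67Fb were named after their values were seen. Gene order is RefSeq's; 132 of 132 symbols matched.

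One wild-type IP label at ZT3 names another time in its description; its title was used. Same-numbered INPUT and IP arrays deviated together at all 5 times with pairs (r 0.381 to 0.664). The numbers were therefore taken as pairing them in the replicate-block fits, while the main tests did not use the pairing. No 2 arrays repeated each other (highest r 0.996). Gene order and plots were made in Python 3.11.15 (pandas 2.3.3, matplotlib 3.10.9).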

Additional observations from a re-analysis of the deposited data

Results flagged for a closer look

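The Tim-Dcr difference of Cpr64Ad, a Cpr gene, was larger in IP than in INPUT by 1.12 on the log2 scale (limma interaction, adjusted p = 0.0274). It rests on 1 Tim-Dcr array per fraction and time. IP exceeded INPUT at both times.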

How the results depend on the processing

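Fits with paired INPUT and IP arrays as a replicate block gave 46 genes for IP against INPUT (32 higher and 14 lower), 3, 1 and 0 for the rhythms of IP, INPUT and their difference, and 65, 45 and 2 for Tim-Dcr in IP, INPUT and their difference; the block ended no call of a named gene. A filter at log2 6, which tests fewer genes, left 15 calls for IP against INPUT, 22 and 16 for Tim-Dcr in IP and INPUT, and 2 for their difference. Deposited values without centring gave 104 calls for IP against INPUT, and reversed Cpr47Ee (-0.064), obst-E (-0.34), TwdlG (-0.38), obst-A (-0.39), Cpr73D (-0.47), Cpr51A (-0.56), Cpr62Bb (-0.63) and TwdlT (-0.70), since IP arrays lie lower as a whole. The other probe set reversed obst-E (-0.24) and Lcp65Aa (0.060). Centring gave 100 (IP), 96 (INPUT) and 0 (difference) for Tim-Dcr. The arrays of ZT3 and ZT15 alone gave 29 in INPUT and 0 for the difference. Chosen after seeing the data, leaving out both Tim-Dcr arrays of ZT15 gave 34, 21 and 0, and those of ZT3 gave 0 for the difference. The Osi6 difference between fractions, not called, turned to 0.075 after quantile normalization and 0.19 without the Tim-Dcr arrays of ZT3. Leaving out each array in turn gave 29 to 36 calls for IP against INPUT, 1 to 4, 0 to 2 and 0 to 0 for the rhythms, 33 to 70 in Tim-Dcr IP (lowest without the Tim-Dcr IP array of ZT15), 21 to 49 in Tim-Dcr INPUT (lowest without the Tim-Dcr INPUT array of ZT15) and 0 to 2 for their difference; the Osi6 difference ran from -0.45 to 0.14. The cause was not tested where none is named. Tim-Dcr has 1 array per fraction and time, and low probe sets have no measured background.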

Other observations

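In wild type, a few cuticle genes differed in the same direction between the array numbered 2 and the array numbered 1 of a time, in every pair or most pairs. Cpr100A was higher on array 2 in all 11 pairs (6 of IP and 5 of INPUT), by a mean of 0.68 in IP and 0.87 in INPUT. Of 106 genes tested it was the 1 gene higher in every pair (0.943%), beside 1.22% of all probe sets. Cpr67Fb was the 1 gene lower in every pair, by -0.60 in IP and -0.21 in INPUT, beside 0.702%. Both counts are near the share of all probe sets. obst-A was higher in 9 of 11 pairs, with a mean of 0.54 in IP and 0.61 in INPUT, Cpr49Ae in 10 of 11 (0.62 and 0.58), Cpr62Bb in 10 of 11 (0.59 and 0.43) and Cpr92F in 10 of 11 (0.66 and 0.65). The share of all probe sets at 9 or 10 of 11 pairs was not counted. The labels do not say what the numbers stand for.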
